A study of Mus musculus with 8 samples.

Results

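The SOXC genes Sox4, Sox11 and Sox12 and the SOXD genes Sox5, Sox6 and Sox13 were taken by name, which gives 6 of the 21627 protein-coding genes with a locus in the mouse RefSeq table (GRCm38). Each gene was described over its span plus 10 kb on either side, here called its locus, and over the 10 to 100 kb beyond, here called its distal window. The data are ChIP-seq of methylated lysine 4 of histone H3 (H3K4me) from whole-cortex lysates of E15.5 mice. ChIP-seq recovers DNA bound by a modified histone with an antibody and sequences it, and the antibody used is sold against the monomethylated form. The WT group (2 libraries) was Prdm16 flox/flox without Cre, and the cKO group (2 libraries) was Emx1Ires-Cre; Prdm16flox/flox, so both groups carry the floxed alleles. Emx1 drives Cre in the dorsal telencephalic lineage, so interneurons, vessels and other cells that enter the cortex from elsewhere keep the gene. The labels do not say which exon is deleted, whether animals were pooled, or whether libraries of 1 group came from different embryos, so a p-value measures only the spread between these libraries.

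SOX proteins bind DNA through an HMG box and bend it. SOXC factors are transcriptional activators that switch on neuronal genes as progenitors leave the cell cycle, and their genes have no introns. SOXD factors have a coiled coil through which they pair, lack a known activation or repression domain of their own, and adjust the action of other SOX proteins. In the cortex Sox5 times the production of deep-layer projection neurons, while Sox6 acts in dorsal progenitors and in interneurons that arrive from the ventral telencephalon. H3K4 monomethylation marks enhancers and the flanks of active promoters, where nucleosomes at the start itself usually carry the trimethylated form.

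Each library has its own list of broad peaks, from 66476 to 82683 peaks covering 114 to 166 Mb, and the read depth is unknown. The cKO lists cover 1.29 times as many bases as the WT lists, which touches every comparison below. The tissue was checked against marker genes. The 14 cortex genes had a median of 61.0% to 67.8% of the locus under peaks across the libraries, against 4.14% to 7.14% for all 21627 loci. The 5 blood genes had a median of 0% in every library, with Gata1, Hbb-bt and Alas2 at 0 in all of them, but the erythroid gene Klf1 had 17.3% to 25.1%. The 5 microglia genes had 4.04% to 5.13%. Interneuron genes had 17.5% to 26.5%, oligodendrocyte precursor genes 16.9% to 25.03%, endothelial genes 3.14% to 8.40% (Tie1 at 0), and meningeal genes 3.67% to 5.55%.

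The listed starts of 5 of the 6 genes lay outside peaks in all 4 libraries. The 1 start listed for Sox5 is an inner one, 835 kb from its outermost 5′ end. The RefSeq promoter table lists 11 starts for the 6 genes, 6 of them for Sox6. Of these 11 starts, 8 had no peak base in any library and 3, all of Sox6, were covered in all 4. Among all 21044 listed starts of 17273 protein-coding genes, 51.1% were uncovered in all 4 libraries and 21.3% covered in all 4. The sequences just before 4 of the uncovered starts are shown because they differ widely in CpG content. Each line gives the 250 bases upstream of the start (RefSeq, GRCm38.p6, minus strand, 5′ to 3′), with every CpG in capitals.
Sox12 (chr2:152398047-152398296): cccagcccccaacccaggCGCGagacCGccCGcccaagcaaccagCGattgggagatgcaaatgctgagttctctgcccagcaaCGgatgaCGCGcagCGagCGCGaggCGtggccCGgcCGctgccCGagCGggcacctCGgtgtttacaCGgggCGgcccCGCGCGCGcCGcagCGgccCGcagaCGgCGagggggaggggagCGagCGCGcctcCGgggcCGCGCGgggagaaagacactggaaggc
Sox11 (chr12:27342719-27342968): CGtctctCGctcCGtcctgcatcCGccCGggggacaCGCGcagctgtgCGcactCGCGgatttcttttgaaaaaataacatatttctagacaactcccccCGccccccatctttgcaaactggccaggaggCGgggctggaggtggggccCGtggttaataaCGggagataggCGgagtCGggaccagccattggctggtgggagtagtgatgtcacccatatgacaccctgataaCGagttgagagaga
Sox4 (chr13:28953700-28953949): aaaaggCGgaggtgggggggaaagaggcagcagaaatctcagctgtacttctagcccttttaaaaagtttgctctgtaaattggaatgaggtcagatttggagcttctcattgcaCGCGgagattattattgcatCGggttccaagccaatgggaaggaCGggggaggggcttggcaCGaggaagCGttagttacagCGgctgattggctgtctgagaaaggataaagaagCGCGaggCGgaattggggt
Sox5 (chr6:143947107-143947356): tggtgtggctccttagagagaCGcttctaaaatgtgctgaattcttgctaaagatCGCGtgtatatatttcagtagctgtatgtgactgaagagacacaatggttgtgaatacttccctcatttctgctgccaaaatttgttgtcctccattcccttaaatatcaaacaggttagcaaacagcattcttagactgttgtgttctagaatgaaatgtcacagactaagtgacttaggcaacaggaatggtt

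The stretch before Sox12 holds 35 CpG at 74.4% G and C, that before Sox11 17 CpG at 58.0%, that before Sox4 11 CpG at 50.8%, and that before the listed Sox5 start 3 CpG at 39.6%. The median over all listed starts is 10 CpG and 55.6%. Uncovered starts of the 6 genes therefore occurred from 1 CpG, at a Sox6 start not printed here, to 35 CpG at Sox12. Over all listed starts, 81.9% of those with 5 or fewer CpG were uncovered in all 4 libraries. The share was 32.5% with 6 to 15 CpG, 29.6% with 16 to 30 and 46.7% with 31 or more. The listed Sox5 start and the uncovered starts of Sox6 have 5 or fewer CpG, the class most often uncovered. Among starts whose flanks, 1 to 5 kb away, were marked on both sides in all 4 libraries, the start itself was uncovered in all 4 for 50.6% of the 488 with 31 or more CpG, 29.0% of the 1504 with 16 to 30, 17.0% of the 1012 with 6 to 15 and 24.1% of the 427 with 5 or fewer. Of the 11 starts only that of Sox12 met this definition of marked flanks around an uncovered start, which 4.55% of all starts met.

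The starts of the SOXC genes lay in gaps between peaks. Sox4, a SOXC activator of early neuronal differentiation (chromosome 13, 28948919 to 28953699), was almost bare over its 4.78 kb body. WT replicate 1 and cKO replicate 2 had 0 kb of it under peaks, WT replicate 2 had 0.049 kb and cKO replicate 1 had 0.051 kb. Peaks flanked it on both sides. The gap around its start measured 5.63 kb in WT 1, 7.87 kb in WT 2, 5.11 kb in cKO 1 and 5.89 kb in cKO 2. Downstream, a peak began 4.73 to 5.25 kb past the start in every library, at the 3′ end of the gene. The stretch shared by all 4 libraries there ran from 28946680 to 28948453 (1774 bp), 466 bp beyond the gene, within the long noncoding RNA genes Gm46405 and Gm46406. Gm46405 also spans Sox4 itself, so the flanking peaks cannot be assigned to 1 of the genes.

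Sox11 (chromosome 12, 27334268 to 27342718) also had its start in a gap and its 3′ end under a peak. This gene encodes the SOXC factor most prominent in newborn neurons. No peak touched the 1 kb on either side of its start in any library, and the gap ranged from 7.15 kb in cKO 1 to 7.72 kb in WT 1, with 7.64 kb in WT 2 and 7.19 kb in cKO 2. The 3′ end was marked in all 4 libraries over 3274 shared bp (27333269 to 27336542), longer than 90.4% of the stretches of at least 200 bp shared by all 4 libraries. Peaks covered 2.28, 2.63, 2.45 and 2.56 kb of the 8.45 kb gene in WT 1, WT 2, cKO 1 and cKO 2, so the body was covered to nearly the same extent in the 4 libraries.

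Sox12, the weakest activator of the 3 (chromosome 2, 152393611 to 152398046), had the shortest gap: 2.37 kb (WT 1), 3.58 kb (WT 2), 2.74 kb (cKO 1) and 2.61 kb (cKO 2). Its 3′ end lay under a peak in all 4 libraries, which shared 2202 bp there (152393343 to 152395544). Peaks covered 54.6% and 43.6% of the gene in WT and 47.6% and 58.3% in cKO, compared with 0% to 1.07% for Sox4. Over the gene span the means were 0.523% ± 0.604 (SD, n = 4 libraries) for Sox4, 29.3% ± 1.83 for Sox11 and 51.0% ± 6.62 for Sox12, further apart than these SDs.

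**Figure D1:**
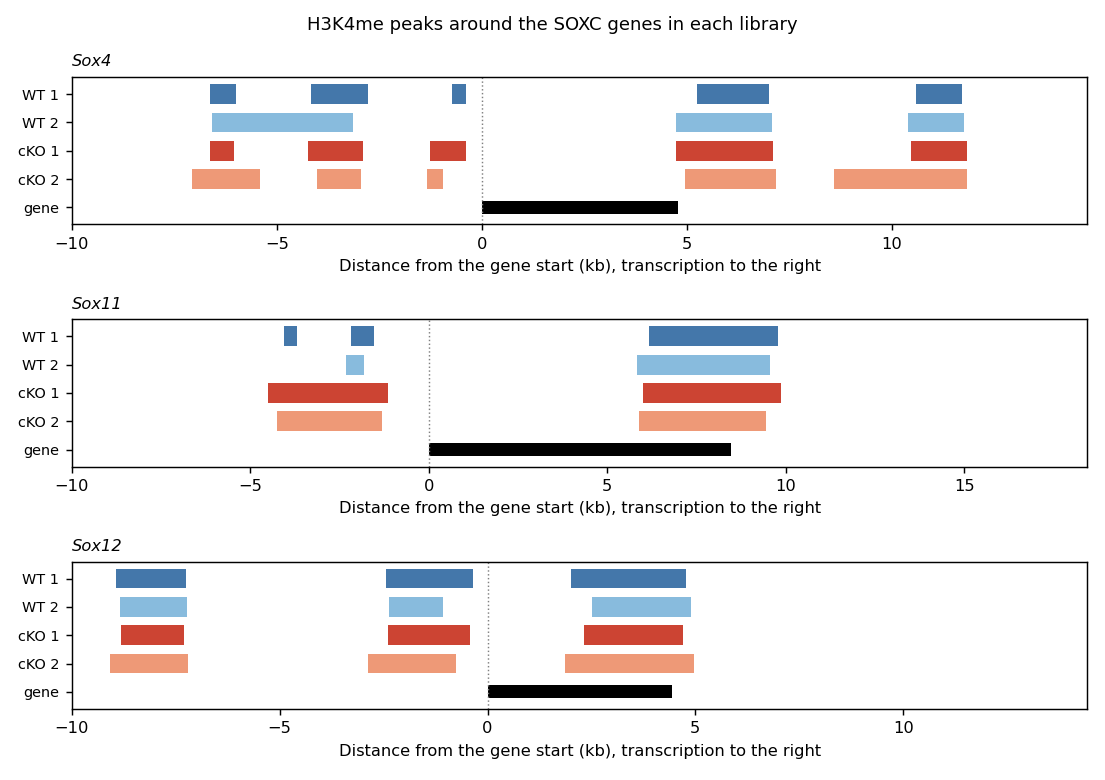
Peaks (bars) in each of the 4 libraries over Sox4, Sox11 and Sox12 with 10 kb on either side. The x axis is the distance from the gene start in kb with transcription to the right, and the black bar is the gene. In all 3 genes the start (dotted line) lies in a gap, and a peak lies near the 3′ end in every library.

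Sox6 had the only covered starts. This SOXD gene spans 570 kb (chromosome 7, 115470872 to 116040776), and its listed starts lie 2.03, 9.73, 45.7, 195, 216 and 239 kb from its outermost 5′ end. Starts 1, 2 and 5 in that order were under peaks in all 4 libraries, and starts 3, 4 and 6 in none. Start 5 lay in the longest shared stretch of the locus, 8411 bp (115822907 to 115831317), longer than 99.1% of shared stretches of at least 200 bp. The second longest, of 8180 bp (116033430 to 116041609), held start 1 and the outermost 5′ end.

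The letters AACAAT and AACAAAG, which SOX proteins are known to bind, were searched on both strands of the 300 bases around each listed start (250 before and 50 after). They occurred at 4 of the 11 starts, all of Sox6, and at 13.3% of all 21044 starts. The 2 words do not overlap each other, and a match is only a description of letters. The 250 bases before starts 1 and 5 are shown because both starts were covered in all libraries and hold matches, which are in capitals (RefSeq, GRCm38.p6, minus strand, 5′ to 3′).
Sox6 start 1 (chr7:116038745-116038994): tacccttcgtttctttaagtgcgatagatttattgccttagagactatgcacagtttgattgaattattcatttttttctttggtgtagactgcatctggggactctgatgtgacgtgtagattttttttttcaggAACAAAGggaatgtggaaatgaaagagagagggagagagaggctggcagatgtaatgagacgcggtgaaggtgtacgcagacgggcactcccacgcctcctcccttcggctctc
Sox6 start 5 (chr7:115824711-115824960): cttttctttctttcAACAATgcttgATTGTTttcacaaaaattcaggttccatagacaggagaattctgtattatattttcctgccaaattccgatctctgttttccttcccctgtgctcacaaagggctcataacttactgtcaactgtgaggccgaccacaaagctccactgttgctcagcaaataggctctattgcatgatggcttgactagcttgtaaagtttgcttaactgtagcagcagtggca

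Positions are counted in bases from the start, negative upstream. Start 1 has AACAAAG on the strand of the gene at −114. Start 5 has AACAAT on the strand of the gene at position −236 and on the opposite strand at −225. Starts 3 and 4 each hold 1 AACAAAG, at −142 (opposite strand) and −45, and were uncovered, so both covered and uncovered starts held a match.

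Averaged over all listed starts, coverage was highest just downstream, at 37.2% (WT 1, 850 bp), 33.3% (WT 2, 950 bp), 41.8% (cKO 1, 950 bp) and 44.0% (cKO 2, 750 bp). At 50 bp past the start it was 32.8% and 27.6% in WT and 38.4% and 42.8% in cKO, against 6.25%, 5.06%, 6.81% and 7.78% near 10 kb upstream.

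**Figure D2:**
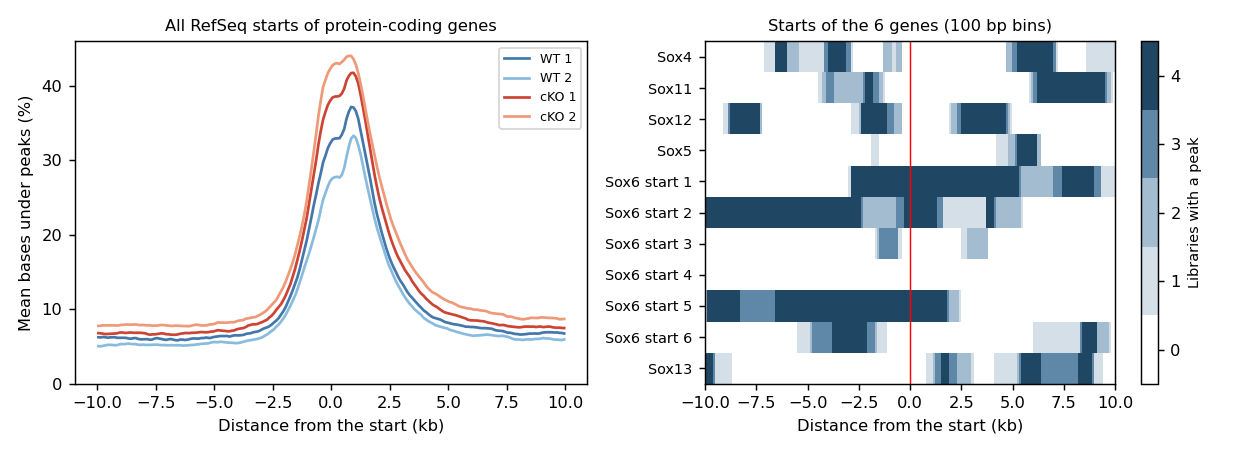
Left, mean share of bases under peaks (percent, 100 bp bins) against distance from all 21044 listed starts, 1 line per library. Right, the number of the 4 libraries with at least 50 of 100 bases under peaks in each bin around the 11 starts of the 6 genes, with the start as a red line: 8 starts fall in white (no library) and 3 starts of Sox6 in the darkest shade (all 4).

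Along the long SOXD genes the mark was spread over many separate stretches. Sox5 spans 954 kb (chromosome 6, 143828425 to 144782287), and its locus held 89, 82, 91 and 89 peaks in WT 1, WT 2, cKO 1 and cKO 2. Of the locus, 194 kb were covered in WT 1, 177 kb in WT 2, 245 kb in cKO 1 and 254 kb in cKO 2. All 4 libraries shared 77 stretches of at least 200 bp, with a median of 1432 bp compared with 1037 bp over the genome. The longest ran from 144039178 to 144046740 (7563 bp). The strongest peak of the Sox5 locus, by the authors' fold enrichment, ranked at percentile 97.0 to 98.5 of its own list, but was a different peak in each library.

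Coverage was uneven along Sox5. When the gene was cut into 10 equal segments of 95.4 kb counted from the 5′ end, segment 7 (144114583 to 144209969) was the most covered, with 44.1% and 37.0% in WT and 59.4% and 61.6% in cKO. Segment 3 had 12.8% and 8.24% in WT and 10.8% and 12.8% in cKO, the lowest mean at 11.2% ± 2.16 (SD, n = 4 libraries). It differed from the 11.4% ± 2.96 of segment 2 by less than these SDs. Segments 4 and 8 followed segment 7 at means of 28.9% ± 1.81 and 30.8% ± 6.94 (SD, n = 4 libraries). These segments were singled out after their values were seen. The outermost 5′ end of Sox5 was marked unevenly between libraries: the 2 kb around it were covered to 0% and 95.4% in WT 1 and WT 2 and to 100% and 89.4% in cKO.

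The Sox6 locus held fewer peaks, 38 and 33 in WT and 41 in each cKO library. They covered 87.6 kb of its locus in WT 1, 83.2 kb in WT 2 and 111 kb in each cKO library. Of 10 segments of 57.0 kb, segment 7 was the most covered at 36.0% ± 5.84 (SD, n = 4 libraries), followed by segment 4 with start 5 at 29.4% ± 2.36, and segment 1 with starts 1 and 2 at 23.8% ± 3.35. Segment 2 was at 5.48% ± 3.39.

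Sox13, first known as an autoantigen of pancreatic islets, is short for a SOXD gene (42.2 kb, chromosome 1, 133382300 to 133424459). Its start lay in a gap of 11.0 kb (WT 1), 10.8 kb (WT 2), 10.6 kb (cKO 1) and 9.53 kb (cKO 2), with the mark beginning 1.48, 1.23, 1.12 and 0.822 kb downstream in WT 1, WT 2, cKO 1 and cKO 2. Peaks lay over the first 3 of 10 segments and the last 4, and segments 4 to 6 had none in any library. In segment 2 coverage ranged from 27.1% in WT 2 to 95.8% in cKO 2, with WT 1 and cKO 1 at 65.3% and 69.6%. The strongest peak of the locus was at the same place in the 4 libraries (in WT 1 from 133397283 to 133398805) and ranked at percentile 91.9 to 99.1 of its own list.

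**Figure D3:**
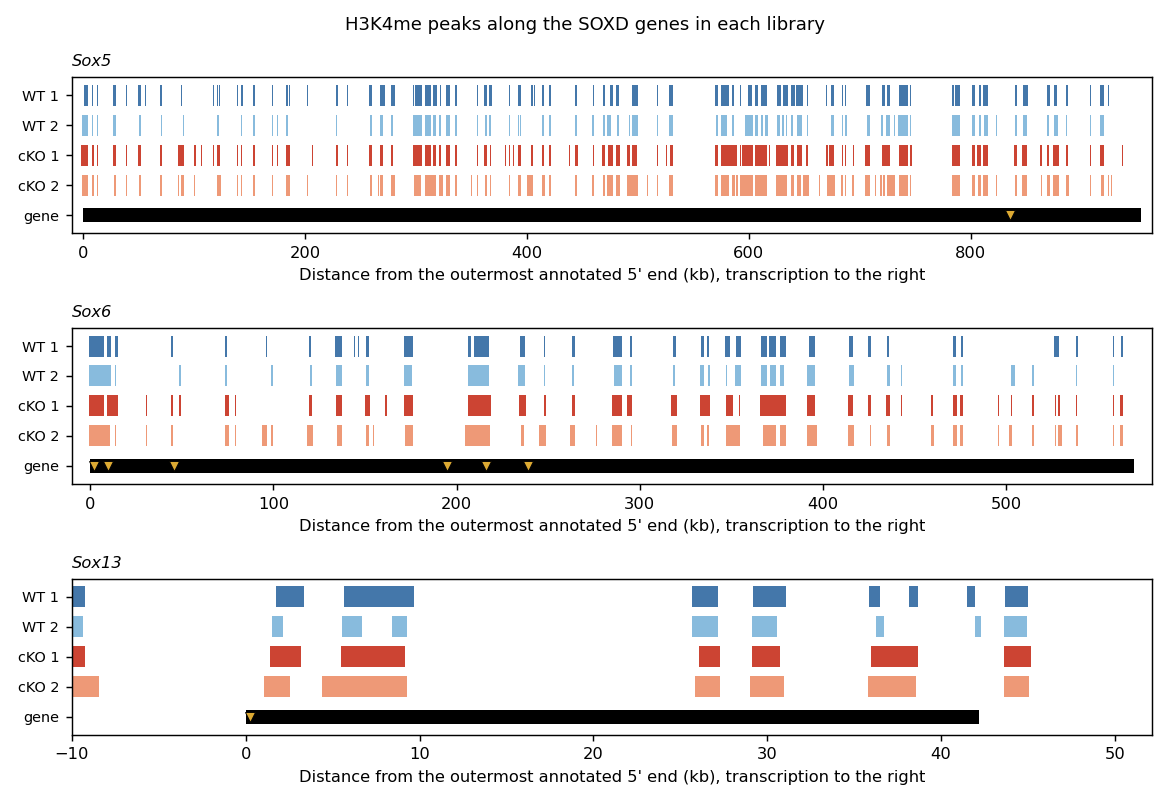
Peaks (bars) in each library along Sox5, Sox6 and Sox13 with 10 kb on either side. The x axis is the distance in kb from the outermost annotated 5′ end with transcription to the right, the black bar is the gene, and triangles are the RefSeq starts listed (1, 6 and 1). Sox5 holds 82 to 91 peaks per library, most densely in segment 7, and the middle of Sox13 holds none.

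As a share of the locus, the 6 genes stood in the upper part of all loci in every library. Sox4 had 21.3% and 28.9% in WT and 26.4% and 34.8% in cKO, a mean of 27.9% ± 5.64 (SD, n = 4 libraries), nearly all of it in the flanks. Sox12 followed at 25.4% ± 3.19, Sox5 at 22.3% ± 3.89, Sox13 at 20.1% ± 4.77, Sox11 at 19.8% ± 5.09 and Sox6 at 16.7% ± 2.52. Neighbours in this order differed by less than the larger of their SDs, and with peaks of a −log10 q of at least 3 the order changed, with Sox4 and Sox5 both at 18.8%. The percentile among all loci ran from 79.3 (Sox6 in cKO 2) to 95.5 (Sox4 in WT 2). In the distal windows Sox5 stood apart from the others: peaks covered 3.32% and 3.14% of its window in WT and 3.37% and 4.57% in cKO (percentiles 35.4 to 43.2), whereas the other members' distal windows had 5.46% to 16.9%.

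**Figure D4:**
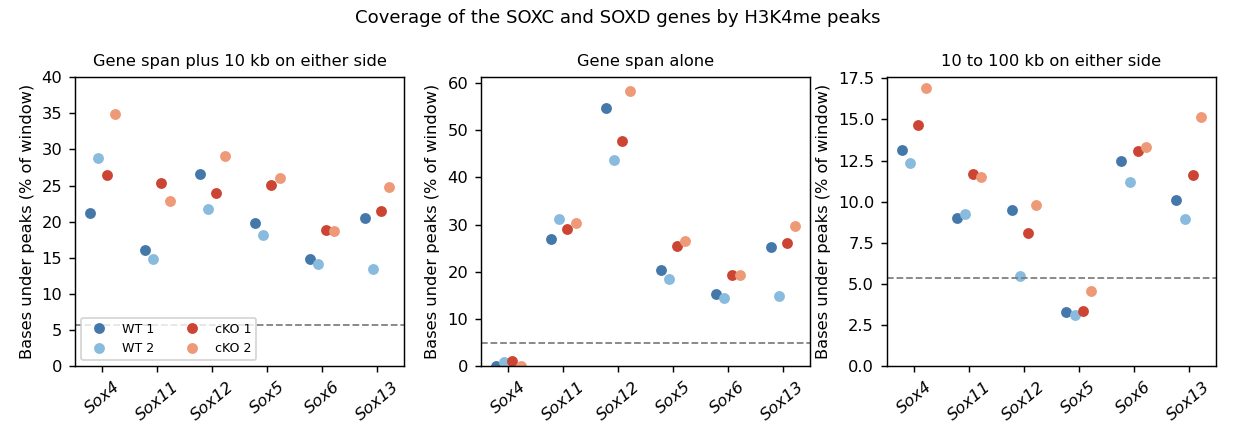
Share of bases under peaks (percent) for the 6 genes in the locus, the gene span alone and the distal window, 1 point per library. The dashed line is the mean over the libraries of the median of all 21627 loci. Sox4 is near 0 within its span in all 4 libraries, and Sox5 lies below the dashed line in the distal window in all 4.

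Long stretches shared by all libraries also lay outside the genes. Near Sox4 the longest was 8149 bp (chromosome 13, 28874048 to 28882196), 66.7 kb beyond the 3′ end, in the long noncoding RNA gene 2610307P16Rik and longer than 99.0% of shared stretches. Near Sox11 a stretch of 2295 bp (chromosome 12, 27355840 to 27358134) lay 13122 bp upstream in Gm30855, a long noncoding RNA gene. It belonged to the strongest peak within 100 kb of Sox11 in every library, at percentiles 96.7 to 99.4 of the lists. The longest distal stretches of Sox12 (2284 bp, 152410417 to 152412700), Sox6 (4989 bp, 116121275 to 116126263) and Sox13 (3395 bp, 133328214 to 133331608) overlapped other coding genes, Zcchc3, Plekha7 and Kiss1, so their link to the SOX gene is by distance only.

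The genotype comparison asks whether loss of Prdm16 moved the mark at these genes. None of the 6 loci passed the test (limma on log2(covered bases + 500), each library centred on its median over 14937 loci, Benjamini-Hochberg adjusted p between 0.607 and 0.981). The calls over all loci were 0% higher and 0% lower in cKO at an adjusted p of 0.05, and 5.56% and 4.43% at an unadjusted p of 0.05, where no member was called. The log2 differences, cKO minus WT, were 0.20 ± 0.195 (SE, 2 libraries per genotype) for Sox11, 0.071 ± 0.159 for Sox13, 0.046 ± 0.0621 for Sox5, −0.0068 ± 0.0858 for Sox6, −0.11 ± 0.23 for Sox4 and −0.26 ± 0.171 for Sox12. Only Sox5, Sox11 and Sox13 were thus above 0 after centring. The median of the 6 members was 0.019, and that of all loci −0.038.

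Before centring, 4 of the 6 loci (Sox11, Sox5, Sox6 and Sox13) had more covered bases in both cKO libraries than in both WT libraries, and 59.8% of all loci did. The ratio of the cKO mean to the WT mean was 1.35 for Sox5, 1.3 for Sox6, 1.36 for Sox13 and 1.55 for Sox11, beside 1.29 for all covered bases. Sox4 and Sox12 overlapped between genotypes, at ratios of 1.22 and 1.10. None of the 6 had fewer bases in both cKO libraries, against 1.23% of all loci. Without centring the median log2 difference of all loci is 0.35, and that of all distal windows 0.37. After centring, no member was higher in both cKO libraries (17.3% of all loci) and Sox12 alone was lower in both (27.2%).

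The distal windows gave no call either (limma over 17640 windows, adjusted p between 0.334 and 0.898 for the 6). Over all windows 0% were called higher and 0% lower at an adjusted p of 0.05, and 5.52% and 8.49% at an unadjusted p of 0.05. Sox6 was the 1 member under that unadjusted level, with 22.4 kb under peaks in WT 1, 20.2 kb in WT 2, 23.5 kb in cKO 1 and 24.0 kb in cKO 2. The covered bases were thus higher in both cKO libraries, while the centred log2 difference was −0.26 ± 0.12 (SE; limma adjusted p = 0.334), or 0.16 without centring. The other 5 ranged from −0.16 ± 0.228 for Sox5 to 0.048 ± 0.125 for Sox13. In covered bases 5 of the 6 windows, all but that of Sox12, were higher in both cKO libraries, and 71.7% of all windows were. None was lower in both, against 0.55% of all windows. After centring, the windows of Sox4 and Sox6 were lower in both cKO libraries, as were 28.7% of all windows, and no member was higher in both (16.9%).

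**Figure D5:**
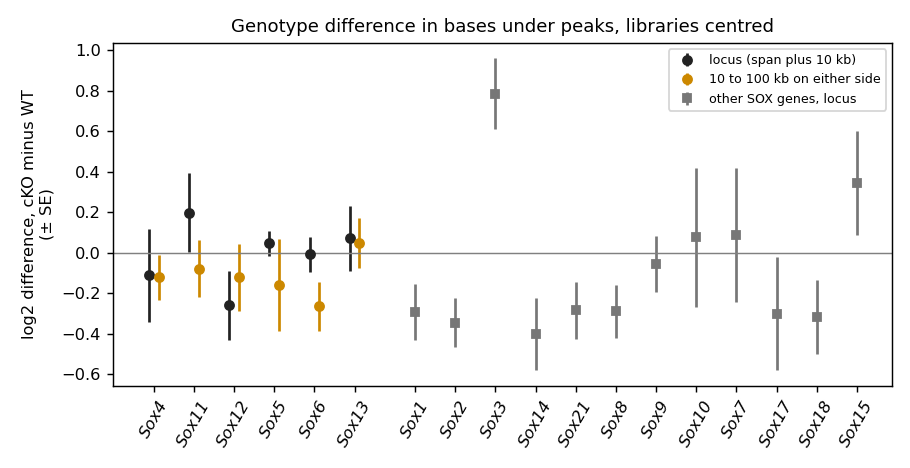
Difference in log2(covered bases + 500) between cKO and WT after centring, with SE from limma (2 libraries per genotype), for the 6 genes in the locus and the distal window and for 12 other SOX genes in the locus. The locus values of the 6 genes lie between −0.26 and 0.20, and Sox3 at 0.78 is the highest value drawn.

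The flank upstream of Sox11 was singled out after its values were seen. From 1 to 5 kb before the start, peaks covered 24.6% and 12.8% in WT 1 and WT 2, and 83.6% and 73.7% in cKO 1 and cKO 2. In each cKO library 1 broad peak ran over the stretch, while WT 1 had 2 short peaks and WT 2 had 1. Of 8587 starts with any peak in this stretch, 33.7% were higher in both cKO libraries, 3.6% were lower in both, and 0.221% had a difference between the genotype means at least that of Sox11 (59.96 percentage points). With only peaks of a −log10 q of at least 3, cKO 2 had 0% and cKO 1 still 83.6%. When the lists were cut by q rank to the covered length of WT 2, both cKO libraries had 0%. This cut was uneven: WT 2 kept all 66476 peaks and WT 1 57254 of 75314. The cKO lists lost more, with 47215 of 80519 peaks kept in cKO 1 and 40688 of 82683 in cKO 2. Of the bases under any peak in the Sox11 locus, 24.5% were covered in both cKO libraries and in neither WT library, compared with 7.04% over the genome. This share largely counts the bases of the same upstream stretch again, so it is no separate result. At the other loci the share was 0% for Sox12, 4.06% for Sox4, 7.96% for Sox6, 8.81% for Sox5 and 9.95% for Sox13. The larger covered length of the cKO lists moves with the difference upstream of Sox11, and its part in it was not tested.

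Regions covered in both libraries of 1 genotype, at least 200 bp long and free of peaks in the other genotype, were few. Such a region was counted only if no base of its whole length lay under a peak of the other genotype. The stretch upstream of Sox11 was touched by WT peaks and was not counted. Sox11 thus has 0 here, although 1.81 kb of its locus lay under peaks in both cKO libraries and neither WT library. The 6 loci held 153 regions under a peak of any library. They contained 11 cKO-only regions, 6 in Sox5, 4 in Sox6 and 1 near Sox4, and 0 WT-only regions. Over the genome, 5591 cKO-only and 581 WT-only regions stood beside 93831 regions under any peak, ratios of 5.96% and 0.619%. These are ratios of counts, not shares of regions absent from the other genotype, because such a region can be a slice of a longer peak. The 1198 bp region in Sox5, for example, lay in a cKO 1 peak of 14409 bp. The longest cKO-only regions of the loci were 1220 bp in Sox6 (115580643 to 115581862), and 1198 bp (144192437 to 144193634), 1150 bp (144695487 to 144696636) and 1066 bp (144087113 to 144088178) in Sox5. The region near Sox4 was 328 bp long (28954640 to 28954967), 941 bp upstream of the gene. Within 100 kb of the genes the counts were 13 and 2, the WT-only regions being 215 bp near Sox11 (27280650 to 27280864) and 360 bp beyond Sox5 (143772530 to 143772889).

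Among the other SOX genes, 12 of the 13 with a locus were tested, and none passed (limma adjusted p between 0.407 and 0.942). At an unadjusted p of 0.05, 1 was higher and 1 lower, beside 5.56% and 4.43% of all loci. The median log2 difference of the 12 was −0.29, against −0.038 for all loci, with 4 values above 0 and 8 below. Sox3, the X-linked SOXB1 factor of neural progenitors, had the largest difference: WT 1 and WT 2 had 4.09 and 3.79 kb under peaks, below the 9.36 and 9.58 kb of cKO 1 and cKO 2. The centred difference was 0.78 ± 0.175 (SE; limma adjusted p = 0.407), and its sign turned with equal covered length (−0.64). Sox14 stood at −0.40 ± 0.178 (−0.017 without centring, −0.054 with equal covered length) and Sox15 at 0.35 ± 0.256 (0.099 without cKO 2, −1.26 with equal covered length). The most covered were the SOXB1 stem cell factor Sox2 (91.5% ± 2.73 of the locus, SD, n = 4 libraries), the SOXE gene Sox8 (64.9% ± 5.62) and the SOXB1 gene Sox1 (60.99% ± 2.67), each above all 6 SOXC and SOXD loci.

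Of 24 partners and targets of SOXC and SOXD factors in neurons, 0 passed the limma test (adjusted p between 0.435 and 0.972), and at an unadjusted p of 0.05 the list had 0 higher and 6 lower, beside 5.56% and 4.43% of all loci. Their median log2 difference was −0.22, against −0.038 for all loci, with 4 values above 0 and 20 below. The 14 cortex markers lay on the same side, with a median of −0.25, 14 values below 0 and 7 lower at that unadjusted level. Among the largest differences were those of the bHLH factors Neurod4 (−0.71 ± 0.372, SE) and Neurod1 (−0.46 ± 0.178). Without WT 2 they were −0.24 and −0.27, without WT 1 −1.17 and −0.66, and without centring −0.32 and −0.080. The most covered were the proneural factor Neurog2 (73.4% ± 6.92, SD, n = 4 libraries), the corticospinal neuron factor Bcl11b (70.7% ± 2.88) and the progenitor factor Pax6 (66.3% ± 3.13).

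The coding loci whose 4 covered shares were nearest to those of each gene, by Euclidean distance in percentage points over the 4 libraries, were Uqcc3 and Trpt1 for Sox4 (2.38 and 3.74), Kremen2 and Lingo4 for Sox11 (2.03 and 2.19), and Ror2 and Pdzd7 for Sox12 (0.824 and 1.3). For the SOXD genes they were Sh3pxd2a and Fam53c for Sox5 (0.597 and 1.17), Bach1 and Cap1 for Sox6 (0.743 and 0.953), and Adcy6 and Nrip3 for Sox13 (0.930 and 1.44). Within 2 percentage points lay 34 loci for Sox6, 18 for Sox5, 9 for Sox12, 7 for Sox13 and 0 for Sox4 and Sox11.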

How the data were processed

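H3K4me ChIP-seq was measured in 4 libraries, 2 WT and 2 cKO; the 4 input libraries were not analysed here. Native chromatin was cut with micrococcal nuclease, per the labels' protocols. FastQC, cutadapt, Bowtie2 2.2.8, MACS2 2.1.1 and build mm10 are named in the submitters' processing notes, with calling options and any use of inputs not given in the sources used here. The authors deposited 1 broad peak list per library, with a score (10 times the −log10 q, cut to a whole number for nearly all peaks), a fold enrichment (ratio), and the −log10 of both its p-value and its q-value. These are the authors' values and were used only within 1 list. Depth is unknown, so no counting interval was computed.

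Peaks on chromosomes 1 to 19 and X were intersected with RefSeq genes and starts (GRCm38.p6, the assembly of mm10) in Python 3.11.15 with numpy 2.4.6 and pandas 2.3.3, and the interval code was checked base by base (200 checks, 0 mismatches). Covered bases were tested in R 4.3.3 by limma 3.58.1 (trended eBayes, no block) on log2(bases + 500), with windows of a mean of at least 1000 covered bases, so a difference understates the change of thinly covered windows. All 6 loci and all 6 distal windows passed this filter. The fit was tested on simulated data. The genes named beyond the 6 were, per list, the 3 with the largest difference and the 3 most covered, and the 2 nearest loci per gene; 1 gene that this rule names is not reported here. The members and lists were chosen with earlier results of these data known. Sry was not analysed here.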

Additional observations from a re-analysis of the deposited data

How the results depend on the processing

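In all alternatives run, none of the 6 genes passed at either window (lowest limma adjusted p 0.106), but the signs of these small differences were not stable. At the locus, no centring gave 0.27 for Sox4, 0.12 for Sox12 and 0.38 for Sox6. Stricter peaks (−log10 q of at least 3) gave 0.52 for Sox4, −0.38 for Sox11 and 0.036 for Sox12. Equal numbers of peaks gave −0.12 for Sox11, and equal covered length −0.26 for Sox11, 0.11 for Sox12 and −0.43 for Sox13. Sox11 was at −0.31 with the gene span alone and −0.080 with 25 kb on either side. Sox6 was at 0.075 with a pseudocount of 2000, 0.075 with cyclic loess scaling and 0.037 with the gene span alone, and Sox5 at −0.020 without a filter. The cause of these turns was not tested. Sox4 could not be fitted over the gene span alone, which failed the filter.

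In the distal window no centring gave 0.30 for Sox4, 0.34 for Sox11, 0.30 for Sox12, 0.26 for Sox5 and 0.16 for Sox6. Equal covered length gave 0.15 for Sox4, 0.13 for Sox11 and 0.12 for Sox12, equal numbers of peaks 0.068 for Sox11, stricter peaks −0.069 for Sox13, and 10 to 50 kb on either side 0.090 for Sox4 and 0.052 for Sox11. Sox3 turned to −0.64 with equal covered length, and Sox15 to −0.65 with stricter peaks, −0.082 with equal numbers and −1.26 with equal covered length. Leaving out 1 library in turn gave locus differences of −0.42 to 0.20 for Sox4, 0.042 to 0.35 for Sox11, −0.30 to −0.22 for Sox12, −0.014 to 0.11 for Sox5, −0.098 to 0.084 for Sox6 and −0.11 to 0.25 for Sox13. The sign turned without WT 2 for Sox4, Sox6 and Sox13, without cKO 1 for Sox5 and without cKO 2 for Sox6. Distal differences were −0.21 to −0.039 for Sox4, −0.23 to 0.070 for Sox11, −0.38 to 0.13 for Sox12, −0.26 to −0.059 for Sox5, −0.35 to −0.17 for Sox6 and −0.034 to 0.13 for Sox13. Here the sign turned without WT 2 or cKO 2 for Sox11, without WT 1 for Sox12 and without cKO 2 for Sox13.

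Over all loci 0 were called. Without a filter 182 loci were called higher and 143 lower. Over all distal windows 0 were called, against 190 and 322 without a filter, 1817 and 2 without centring and 1 higher with a pseudocount of 2000. The replicate numbers share no stated litter or day, and deviations of libraries with the same number correlated at −0.096 (loci) and −0.11 (distal windows). With the replicate block 0 loci and 60 higher and 30 lower distal windows were called, none of them a member. The crossed replicate block, added after seeing the data, called 243 and 501 distal windows and 0 loci. Leaving out 1 library, where the lone library is assumed to vary like the other genotype, called 0 to 119 loci higher and 0 to 5 lower, all of them without WT 1. It called 3 to 478 distal windows higher and 3 to 703 lower, the most without WT 1.

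Levels were lower with stricter peaks for all 6 genes, at 18.8% for Sox4, 16.9% for Sox11, 18.1% for Sox12, 18.8% for Sox5, 14.0% for Sox6 and 17.8% for Sox13, and over the gene span alone they were 0.523% for Sox4, 29.3% for Sox11 and 51.0% for Sox12. The cKO-only regions within 10 kb were 5 at 500 bp, 6 with equal numbers and 2 with equal covered length, and within 100 kb they were 5, 7 and 2. The WT-only regions within 10 kb numbered 1 with stricter peaks, 2 with equal numbers and 15 with equal covered length. Within 100 kb they were 0 at 500 bp and 18 with equal covered length. The balance thus turned with equal covered length, as it did over the genome, with 558 cKO-only and 6719 WT-only regions. That setting removed more peaks from the cKO lists than from the WT lists, and none from WT 2, so its cutoff differed between genotypes. With the full lists the genome had 5591 and 581, and with equal numbers 2827 and 1771. The difference upstream of Sox11 was 27.4 percentage points with stricter peaks, 23.1 with equal numbers and −18.7 with equal covered length (alternatives chosen after seeing the data). With unknown depth and 2 libraries per genotype, small differences are not detectable.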
